A study of Mus musculus with 6 samples.

Results

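The beta-defensins Defb1, Defb3, Defb4 and Defb14 and the antimicrobial proteins Lcn2, Ltf and Camp were followed in the esophageal lining of mice on 2-colour expression arrays. They were taken by gene name, as every probe that carries the name of one of these 7 genes in the scanner files. This gave 6 of the 7 genes, out of 28508 gene names on the array, with 8 of 41174 probes: a probe each for Defb3, Defb14, Lcn2 and Camp, and a pair each for Defb1 and Ltf. No probe carries the name Defb4. Of the 8 probes, 7 were tested because every array of 1 group or of both showed Cy5 well above background, and the Camp probe was not.

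The arrays fall into 2 groups of 3, called by their labels. The arrays labelled Pax9 knockout carried RNA from K5Cre;Pax9 loxp/loxp mice, in which a Cre recombinase under a keratin 5 promoter, active in basal keratinocytes, acts on floxed alleles of the paired-box transcription factor Pax9. The arrays labelled wild type carried RNA from mice given as WT. All mice were adult, of C57BL/6J background, with no treatment named. The labels give the source as esophageal epithelium, and the RNA as extracted from esophageal tissue. Cy5 marked the esophagus RNA. Cy3 marked a universal mouse reference, RNA of several cell lines that was common to the 6 arrays. Replicates are described as biological with nothing further on the mice they came from, and the p-values cover only the spread seen among these arrays, which may be technical.

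Antimicrobial peptides and proteins are part of the chemical barrier of moist surfaces. Beta-defensins are short cationic peptides, held in shape by disulfide bonds, that damage microbial membranes and attract immune cells. Defb1 is made by many epithelia without a stimulus, while Defb3, Defb4 and Defb14 are known as genes that microbial products and cytokines can induce. Lcn2 binds the iron carriers that bacteria secrete, Ltf (lactotransferrin) binds iron itself, and Camp encodes the precursor of the cathelicidin peptide CRAMP. Epithelia can make these proteins, and neutrophils store them in granules.

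The probe named Defb3 reads a stretch close to the gene's start that several beta-defensin genes of chromosome 8 share. Besides the Defb3 transcript, its annotation in the scanner files lists RefSeq transcripts of Defb4 and Defb8, 3 transcripts in all. The sequences below are shown because they set what this signal can be assigned to. The probe (mm9, chr8:19293364-19293423, plus strand) is given first. The others are from RefSeq, on build GRCm38.p6, from a table of the bases around gene starts in which 4 of the 7 genes (Defb3, Lcn2, Ltf and Camp) have an entry. Capitals mark bases that differ from the probe, and the RefSeq stretches end where the table's sequence ends.
Defb3 probe: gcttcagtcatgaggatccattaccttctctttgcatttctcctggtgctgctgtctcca
Defb46 at chr8:19239907-19239965: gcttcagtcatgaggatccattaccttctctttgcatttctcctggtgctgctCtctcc
Defb5 at chr8:19247583-19247641: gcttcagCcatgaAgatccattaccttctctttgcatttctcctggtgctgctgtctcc
Defb3 at chr8:19293364-19293410: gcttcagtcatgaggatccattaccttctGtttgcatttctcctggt
Defb8 at chr8:19447557-19447602, minus strand: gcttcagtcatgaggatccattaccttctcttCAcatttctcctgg
Defb7 at chr8:19495099-19495146: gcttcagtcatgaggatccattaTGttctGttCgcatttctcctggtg

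Counted from 1 at the 5′ end of the probe, the probe and the Defb3 gene differed by C30G over the 47 bases compared. Defb46 differed by G54C over 59 bases, Defb5 by T8C and G14A over 59, Defb8 by T33C and G34A over 46, and Defb7 at 4 positions over 48. These 5 were the entries among 32851 that held an exact run of 20 bases of the probe. The signal is therefore called the Defb3 probe below, and the share of each gene in it was not measured. Separate probes named Defb5, Defb7 and Defb8 were dim. Defb5 was not well above background on any array, and Defb7 and Defb8 were above it on 2 arrays labelled knockout each and on none labelled wild type, with Cy5 signals of at most 28.9 and 20.1.

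The other probes each list transcripts of 1 RefSeq gene. The pair for Defb1 (mm9, chr8:22905030-22905089 and chr8:22905041-22905100, plus strand) share 49 of 60 bases, the second being shifted by 11. They are told apart by their ends, which bear on the values below: the 11 bases held by the first probe alone and the 11 held by the second alone.
Defb1 probe 1, first bases: caactgttgta
Defb1 probe 2, last bases: gtaaaattagt
The Defb14 probe (mm9, chr8:19195152-19195211, plus strand) and the pair for Ltf (mm9, chr9:110938264-110941314 and chr9:110942873-110942932, plus strand) are printed because their values are compared with those of the Defb3 and Defb1 probes. The first Ltf probe has 60 bases on a genomic span of 3051, and the pair do not overlap.
Defb14: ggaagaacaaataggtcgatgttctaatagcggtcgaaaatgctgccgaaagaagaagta
Ltf probe 1: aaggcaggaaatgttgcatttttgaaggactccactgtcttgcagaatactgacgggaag
Ltf probe 2: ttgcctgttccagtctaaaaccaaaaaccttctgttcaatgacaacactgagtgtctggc
The Lcn2 probe lies on chromosome 2 (32241037 to 32241281, mm9, minus strand, a span of 245) and the Camp probe on chromosome 9 (109749992 to 109750051, mm9, minus strand).

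Some facts of the whole series bear on every value. The arrays labelled knockout all lay on 1 slide and those labelled wild type on another, so the slide and the group cannot be told apart. Pax9 itself had Cy5 signals of 17209, 18930 and 19081 on the arrays labelled knockout, against 4409, 4708 and 8915 on those labelled wild type. Its log2 ratio difference was 0.73 (SE 0.18, limma adjusted p = 0.071), so the targeted gene was not lower where the labels say knockout. Whether its probe lies within the deleted stretch is not stated in the labels. Each direction below rests on those labels. In the Cy3 channel, which held the same reference RNA on all arrays, 54.8% of tested probes passed the threshold between the slides when Cy3 was fitted alone. The squamous epithelium markers were bright, with a summed Cy5 signal of 1776700 to 2222700 on the arrays labelled knockout and 767520 to 2206400 on those labelled wild type. Among 11 tested probes of that list 1 fell, where 1.78% of all tested probes fell. It was a probe of Dsg3, a desmosomal cadherin, at 60.5 to 125 on the arrays labelled knockout and 398 to 899 on those labelled wild type. Its difference was -2.85 (SE 0.46, limma adjusted p = 0.026). A second, brighter Dsg3 probe read 1528 to 2021 on the arrays labelled knockout and 1193 to 2637 on those labelled wild type. It did not pass (difference -0.03, SE 0.33, limma adjusted p = 0.97), so the fall depends on which probe is read. The muscle genes Acta1 and Ckm were also bright, Acta1 at 46130 to 354830 against 8528 to 82931 and Ckm at 6229 to 70538 against 747 to 9890, so the RNA was not of epithelium alone. In such bulk RNA, more cells of a type and more RNA per cell cannot be told apart.

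None of the 7 tested probes passed the threshold between the groups, an adjusted p under 0.05 in limma, which 4.18% of all tested probes did (2.39% with a higher and 1.78% with a lower ratio in the knockout group). At an unadjusted p under 0.05 the count was 1 of the 7, the Defb3 probe, where all tested probes gave 23.3%, with 11.9% higher on the arrays labelled knockout. The group values of the log2 ratio, esophagus over reference, did not overlap at 2 of the 7, the Defb3 probe and the second Ltf probe, both higher on the arrays labelled knockout. Over all tested probes 30.5% did not overlap, 15.5% in that direction. The second Ltf probe was tested only because it stood above background on the arrays labelled knockout, on none labelled wild type, so the filter favoured that direction there. Leaving it aside, 1 of 6 probes did not overlap. The difference was above 0 at 6 probes and below 0 at 1, with a median of 0.17 against -0.0027 over all tested probes.

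**Figure D1:**
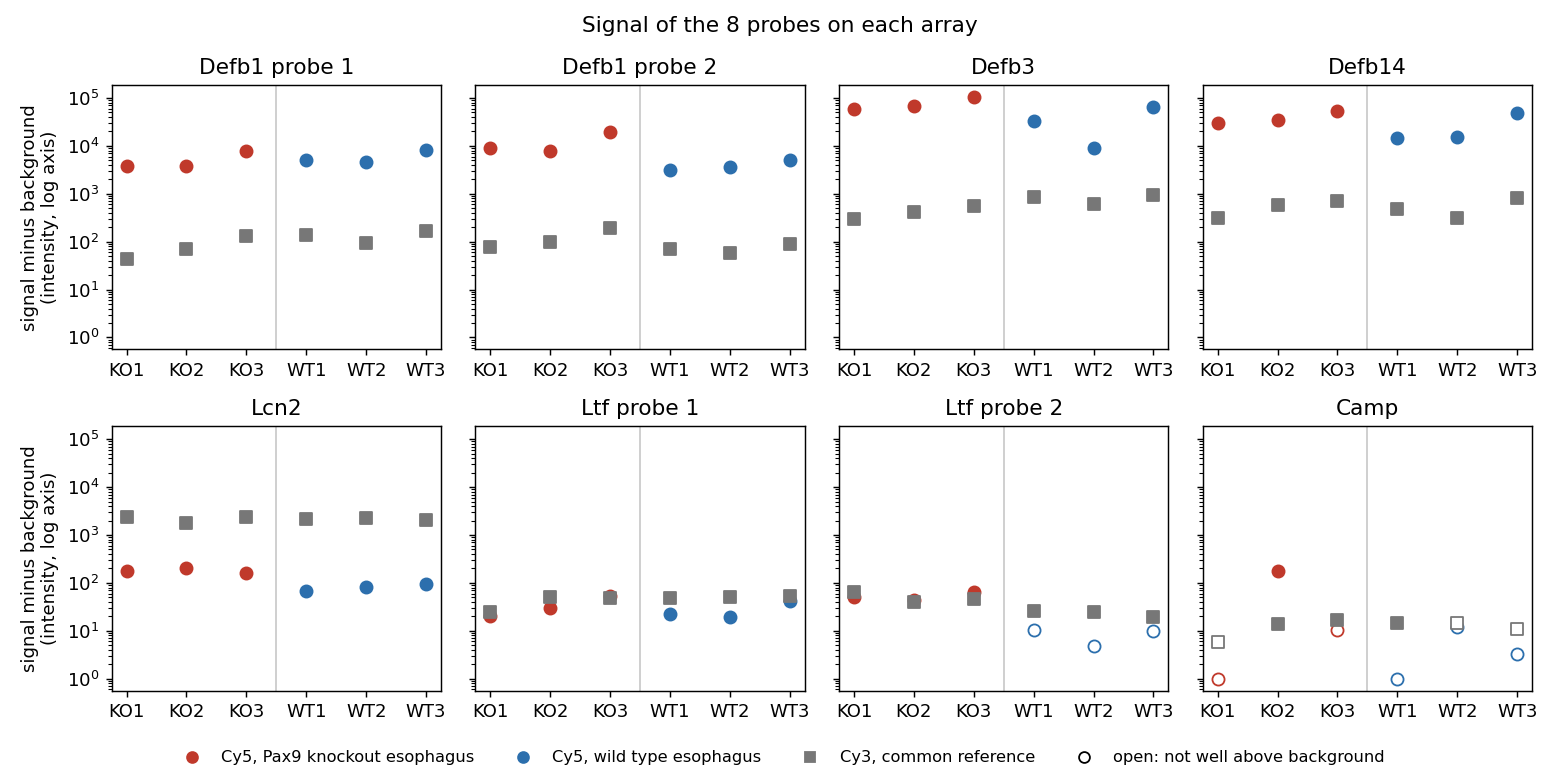
Background-subtracted signal (log axis) of the 8 probes on each array, with the 3 arrays labelled Pax9 knockout (KO) left of the 3 labelled wild type (WT). Circles are Cy5 (esophagus), squares Cy3 (common reference) and open symbols signals not well above background, with values below 1 drawn at 1. On each of the 6 arrays Cy5 exceeds Cy3 by far at the defensin probes, while Lcn2 is far lower in Cy5, and Camp is above background in Cy5 on knockout replicate 2 alone.

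The Defb3 probe had the largest difference of the 7 tested probes. Its Cy5 signals were 60017, 68395 and 105305 on the arrays labelled knockout (replicates 1, 2 and 3), against 33077, 9040 and 66088 on those labelled wild type. Wild type replicate 2 was the lowest by far, and wild type replicate 3 lay above knockout replicate 1, so the Cy5 signals overlapped. The Cy3 signals of the same probe were 292, 419 and 568 on the arrays labelled knockout, against 837, 616 and 950 on those labelled wild type. Here the groups did not overlap, although the reference RNA was the same, and the direction was opposite to that of Cy5.

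The log2 ratio of the Defb3 probe was 8.50, 7.95 and 8.08 on the arrays labelled knockout, against 7.31, 5.85 and 6.62 on those labelled wild type. The means were 8.18 ± 0.29 and 6.59 ± 0.73 (SD, n = 3 each). The difference of 1.58 (SE 0.36, 95% interval 0.73 to 2.44) missed the threshold, at an adjusted p of 0.059 in limma. With the replicate number as a block it passed, at an adjusted p of 0.013, in a fit that called 7.39% of all tested probes. With Cy5 alone the difference was 1.04 (SE 0.48, adjusted p = 0.14), and with Cy3 alone it was -0.66 (SE 0.20, adjusted p = 0.025). The difference in the ratio thus combines a Cy5 difference above 0 and a Cy3 difference below 0.

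**Figure D2:**
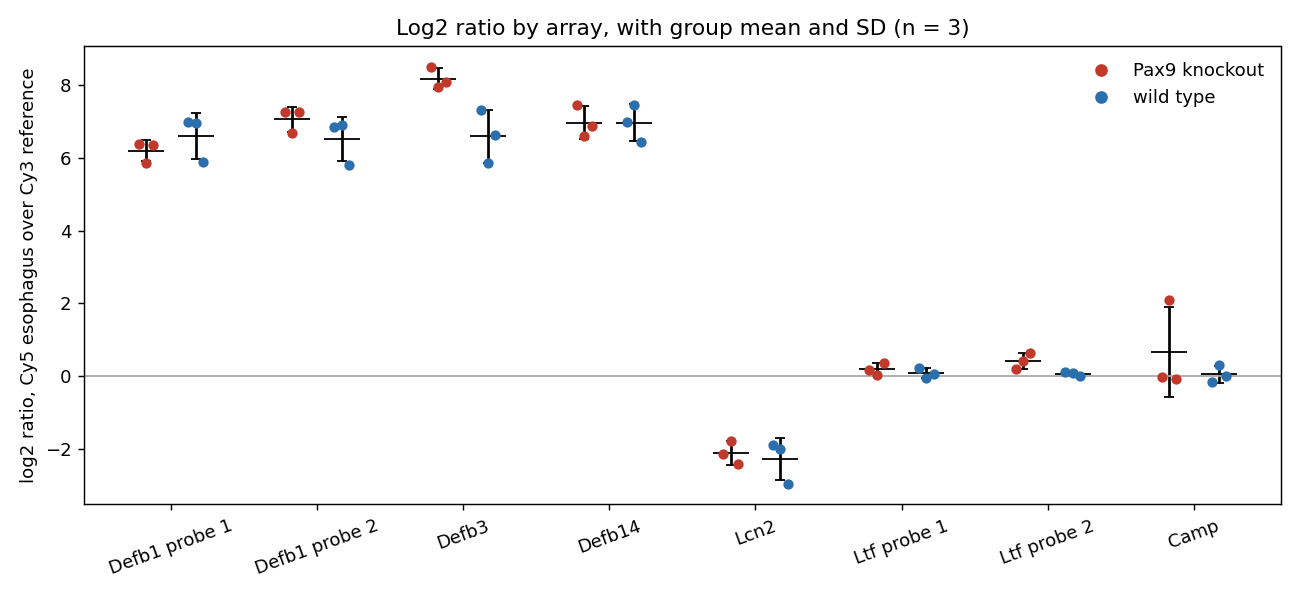
Log2 ratio of Cy5 over Cy3 at each of the 8 probes, with points for arrays and bars for the group mean and SD (n = 3), arrays labelled Pax9 knockout on the left of each pair. The groups separate at the Defb3 probe (means 8.18 and 6.59) and narrowly at Ltf probe 2 (0.41 and 0.06), and overlap elsewhere.

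Defb14, an inducible defensin of chromosome 8, had near equal mean ratios in the groups. Its Cy5 signals were 29499, 35052 and 52907 on the arrays labelled knockout, against 14792, 15034 and 49652 on those labelled wild type. Replicate 3 was the brightest in both groups, and the groups overlapped. The log2 ratios were 7.46, 6.59 and 6.86 on the arrays labelled knockout, against 6.99, 7.46 and 6.44 on those labelled wild type. The difference was 0.01 (SE 0.32, 95% interval -0.74 to 0.76, limma adjusted p = 0.99). That interval leaves room for a change of either sign, and wild type replicate 2, the lowest of all arrays at the Defb3 probe, was among the highest in ratio at Defb14.

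Defb1, the defensin made without a stimulus, gave opposite answers at its 2 probes. Probe 1 had Cy5 signals of 3757, 3802 and 7653 on the arrays labelled knockout, against 5174, 4713 and 8069 on those labelled wild type. Probe 2 had 8922, 7869 and 19519 on the arrays labelled knockout, against 3183, 3565 and 5086 on those labelled wild type. At probe 1 the groups overlapped, and at probe 2 each array labelled knockout was brighter than each labelled wild type. In the log2 ratio the difference was -0.41 (SE 0.33, adjusted p = 0.48) at probe 1 and 0.54 (SE 0.33, adjusted p = 0.36) at probe 2, neither past the threshold in limma, and with the deposited log ratio both changed sign. With single arrays left out, probe 1 lay between -0.78 and -0.22 and probe 2 between 0.19 and 0.74. The values of -0.78 and 0.19 were those without wild type replicate 3. With Cy5 alone the differences were -0.82 and 0.97.

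The disagreement between the Defb1 probes was also present in the reference channel. In Cy5, probe 2 minus probe 1 was 1.20 ± 0.16 on the arrays labelled knockout and -0.58 ± 0.16 on those labelled wild type (log2, SD, n = 3 each), a shift of 1.79. In Cy3 it was 0.35 ± 0.09 and -0.54 ± 0.12, a shift of 0.89 in the same direction. In the log2 ratio, which divides one channel by the other, a shift of 0.96 remained. Each of the 3 had an exact two-sided permutation p of 0.1, the smallest that 3 against 3 arrays can give. Among 4730 genes with 2 tested probes, 3.44% shifted at least as far in Cy5. A shift of 1 or more in Cy5 occurred in 22.2% (1050 genes), and in 1030 of these Cy3 shifted in the same direction. The direction of Defb1 between the groups therefore depends on which probe is read.

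**Figure D3:**
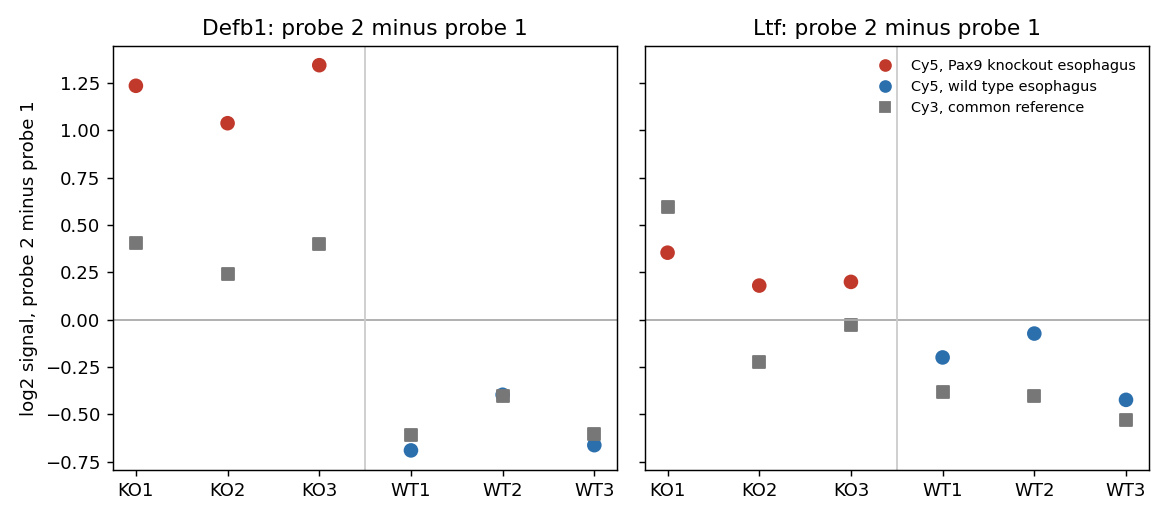
Log2 signal of probe 2 minus that of probe 1 on each array, for Defb1 (left) and Ltf (right), with Cy5 as circles and Cy3 as squares. For Defb1 both channels lie above 0 on the 3 arrays labelled Pax9 knockout (KO) and below 0 on the 3 labelled wild type (WT), and for Ltf both channels lie below 0 on the wild type arrays.

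Lcn2 was dim in the esophagus and bright in the reference. Its Cy5 signals were 174, 202 and 162 on the arrays labelled knockout, against 68.6, 82.4 and 94.6 on those labelled wild type, with no overlap. Its Cy3 signals lay between 1810 and 2385 on the arrays labelled knockout and between 2059 and 2261 on those labelled wild type. After normalization the log2 ratios were -2.13, -1.79 and -2.43 on the arrays labelled knockout, against -1.89, -2.01 and -2.95 on those labelled wild type. They overlapped, and the difference was 0.17 (SE 0.31, 95% interval -0.57 to 0.91, limma adjusted p = 0.78). The signals before normalization were thus apart, with a median Cy5 signal over all probes of 97.5 to 132.8 on the arrays labelled knockout and 56.0 to 158.8 on those labelled wild type.

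Ltf was near background at both probes. Probe 1 had Cy5 signals of 20.6, 30.5 and 54.0 on the arrays labelled knockout, against 22.2, 19.2 and 41.4 on those labelled wild type, and the groups overlapped (difference in log2 ratio 0.10, SE 0.16, adjusted p = 0.74). Probe 2 had 51.3, 44.9 and 64.6 on the arrays labelled knockout, against 10.5, 4.80 and 10.1 on those labelled wild type, where it was not well above background on any array. The signal of the arrays labelled wild type is thus only a bound, and the differences given below for this probe rest on it.

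The reference channel moved with the second Ltf probe as well. Its Cy3 signals were 66.0, 39.0 and 45.3 on the arrays labelled knockout, against 26.1, 24.7 and 19.0 on those labelled wild type. The difference was 0.51 (SE 0.13, adjusted p = 0.012) in Cy3 alone and 0.49 (SE 0.15, adjusted p = 0.047) in Cy5 alone, in fits that called 54.8% and 26.9% of all tested probes. In the log2 ratio it was 0.35 (SE 0.16, adjusted p = 0.25), with the deposited log ratio it was 0.88, and with median centring in place of loess it was -0.17. Cy3 thus differed by about as much as Cy5 at this probe.

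**Figure D4:**
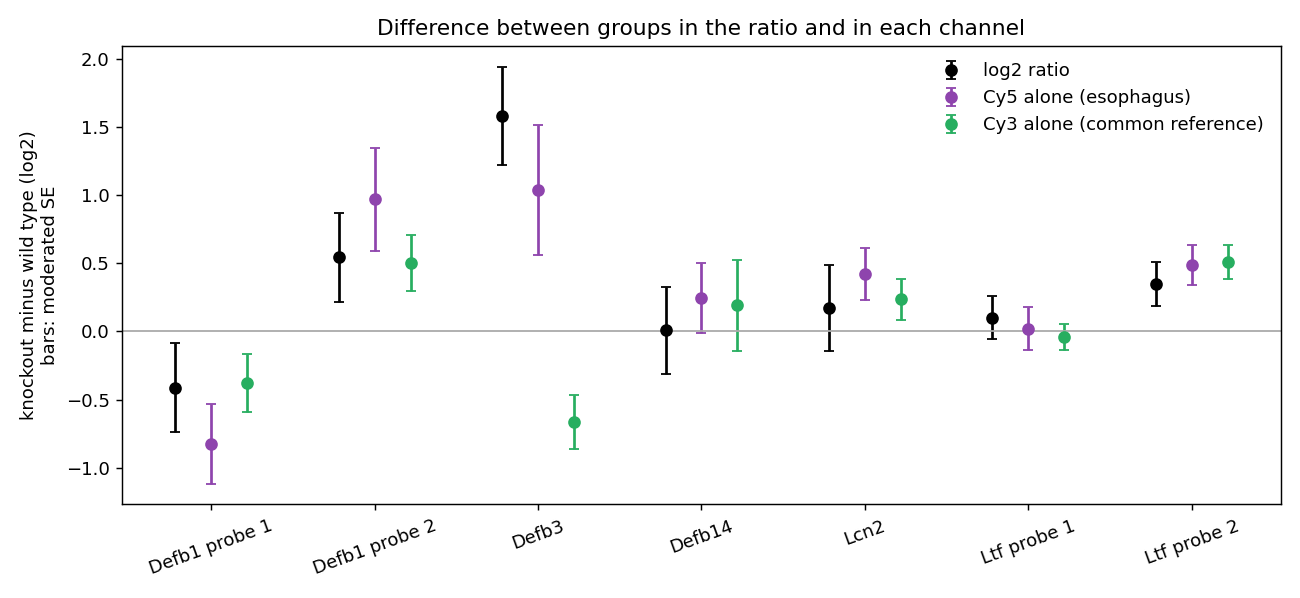
Difference, arrays labelled Pax9 knockout minus wild type (log2, bars are the moderated SE), at the 7 tested probes in the log2 ratio, in Cy5 alone and in Cy3 alone. Cy3 holds the same RNA on all arrays, yet lies at -0.66 for the Defb3 probe and at 0.51 for Ltf probe 2.

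Camp was above background on 1 of the 6 arrays. Its Cy5 signals were 0.361, 179 and 10.4 on the arrays labelled knockout (replicates 1, 2 and 3), against -2.96, 12.2 and 3.28 on those labelled wild type, after subtraction of background. Knockout replicate 2 stood alone, with a log2 ratio of 2.08 where the others lay between -0.16 and 0.31. The probe was not tested. Without the filter on dim probes the difference was 0.61 (SE 0.58, limma adjusted p = 0.63). Knockout replicate 2 also had the highest Acta1 and Ckm signals of the 6 arrays, 354830 and 70538. The same held at both probes of Amy1, a gene of the gland marker list. They read 3091 and 1858 there, against 284 to 691 and 53.7 to 126 on the other arrays. The part of other tissue in the Camp signal was not tested.

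Markers of neutrophils, whose granules hold Lcn2, Ltf and Camp, gave no call. Of 21 probes for 18 marker genes, 15 were tested and 0 passed in limma (0 with the replicate block), with a median difference of -0.45. At an unadjusted p under 0.05 there were 4 of the 15 probes, where all tested probes gave 23.3%. Each of the 4 was lower on the arrays labelled knockout. They are named here after their values were seen. Both probes of Cxcr2, a chemokine receptor of neutrophils, differed by -1.23 and -0.77 (adjusted p = 0.093 and 0.17), and Itgam, an integrin of myeloid cells, by -0.65 (adjusted p = 0.11). The other was Prtn3, near background on the arrays labelled knockout. At a second Itgam probe, not among the 4, the groups overlapped (difference -0.48, SE 0.54, limma adjusted p = 0.63). The granule genes Elane and Ngp and the collagenase Mmp8 were not well above background on any array, and the receptor gene Csf3r was above it on 1 array of each group. Mpo, the myeloperoxidase of neutrophil granules, was above background on all 6, at 174 to 230 on the arrays labelled knockout and 49.3 to 185 on those labelled wild type (difference 0.43, adjusted p = 0.28). The summed Cy5 signal of the list was 228250 to 415330 on the arrays labelled knockout and 227220 to 396960 on those labelled wild type. Most of it came from Cstdc5 and S100a9, which keratinocytes can also express. On knockout replicate 2, the array with Camp signal, Elane read 13.6 and Ngp 6.67, both not well above background.

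Blood genes were brighter on the arrays labelled knockout without passing. The summed Cy5 signal of hemoglobin and red cell genes was 12793 to 63494 there and 2835 to 4496 on the arrays labelled wild type. Of 7 tested probes for 4 genes 0 passed in limma, and the median difference was 1.72. At an unadjusted p under 0.05 there were 6, where all tested probes gave 23.3%. With the replicate block 3 passed, where all tested probes gave 7.39%. Several of the 7 probes read the same hemoglobin gene, Hbb-b1, and so do not count as separate genes. The groups overlapped at Slc4a1 (difference 0.17, limma adjusted p = 0.83). Macrophage markers had 0 of 11 tested probes past the threshold (0 at an unadjusted p under 0.05, 1 with the replicate block) and a median of -0.33. Of 11 tested gland and airway probes 1 fell, Scgb3a2, a secretoglobin of airway cells (difference -1.85, SE 0.22, limma adjusted p = 0.012), while its Cy5 signals overlapped, at 435 to 650 on the arrays labelled knockout and 363 to 993 on those labelled wild type. That list had members on both sides, with Scgb3a1 at 0.82, Pip at 0.66 and Scgb1a1 at -0.70 (limma adjusted p = 0.14, 0.055 and 0.33). Its median was 0.05. At an unadjusted p under 0.05 there were 3 of the 11, and 1 passed with the replicate block. Of 7 tested stomach probes 1 rose, Atp4b, a subunit of the gastric proton pump, at 154 to 219 on the arrays labelled knockout and 19.1 to 39.0 on those labelled wild type (difference 0.81, SE 0.17, adjusted p = 0.049). Gkn2 and Pgc of that list also lay above 0. Muc6 (-0.52, limma adjusted p = 0.073), Tff1 (-0.32) and both Atp4a probes (-0.21 and -0.16) lay below 0, and the median was -0.16. At an unadjusted p under 0.05 there were 2 of the 7 stomach probes, and 1 passed with the replicate block. Over all tested probes 4.18% passed in limma. The part of blood, macrophage, gland, airway and stomach cells in the values of Lcn2, Ltf and Camp was not tested.

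Among the other defensin genes on the array, 40 probes for 36 genes, 16 probes were tested. Of these 0 rose and 1 fell, where 2.39% of all tested probes rose and 1.78% fell. The one that fell was Defb36, a beta-defensin gene of chromosome 2, with Cy5 signals of 16.6, 14.4 and 15.1 on the arrays labelled knockout, against 70.8, 73.9 and 175 on those labelled wild type (difference in log2 ratio -0.86, SE 0.14, limma adjusted p = 0.028). Its probe was above background on 2 of the 3 arrays labelled knockout. Defb37 had the next smallest p, with a difference of -0.79 (adjusted p = 0.13). Defb6, a beta-defensin gene of the chromosome 8 cluster, was named after its values were seen. Its Cy5 signals were 6910, 7329 and 10956 on the arrays labelled knockout, against 4340, 1200 and 9231 on those labelled wild type. As at the Defb3 probe, wild type replicate 2 was the lowest, and the difference of 0.54 (SE 0.45, adjusted p = 0.51) did not pass.

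Of 39 tested probes for other antimicrobial proteins, 2 rose and 0 fell, where 2.39% of all tested probes rose and 1.78% fell. Zg16, a lectin of mucus that binds bacteria, had Cy5 signals of 294, 206 and 251 on the arrays labelled knockout, against 8.95, 18.5 and 29.8 on those labelled wild type (difference 1.63, SE 0.19, adjusted p = 0.012). Hamp2, a gene of the hepcidin family, had 231, 160 and 243 against 21.1, 23.2 and 44.6 (difference 0.92, SE 0.17, adjusted p = 0.034), both by limma. With Defb36, these were the 3 calls among all pathway probes, against 13 with the replicate block. Over all tested probes 4.18% passed, and 7.39% with the block. There were 0 pathway calls without knockout replicate 3, without wild type replicate 1, or with median centring. There was 1 each without knockout replicate 1 and without wild type replicate 2. Zg16 was above background on 2 of the 3 arrays labelled wild type. Zg16 and Defb36 were thus tested only through the group where they were brighter, so the filter favoured their directions. With Cy5 required above background on all 6 arrays, 1 pathway call remained.

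No probe passed in limma among receptors and uptake proteins (0 of 10 tested), processing proteases (0 of 9), inducing cytokines and their receptors (0 of 25) or microbial sensors and transcription factors (0 of 35). At an unadjusted p under 0.05 the counts were 4 of 10, 3 of 9, 10 of 25 and 6 of 35, where all tested probes gave 23.3%. With the replicate block 2, 0, 2 and 3 passed, where all tested probes gave 7.39%. Lrp2, an uptake receptor for Lcn2, had Cy5 signals of 47.4 to 144 on the arrays labelled knockout, against 3.21 to 13.1 on those labelled wild type, where it never stood well above background (adjusted p = 0.066). Its 3 other probes were too dim to be tested. Ccr6, a receptor through which beta-defensins attract dendritic and T cells, differed by -1.15 (adjusted p = 0.073). Among the proteases, Mmp7, which activates alpha-defensins in the mouse gut, read 49.2 to 72.3 on the arrays labelled knockout and 3.49 to 8.78, near background, on those labelled wild type (adjusted p = 0.12). Prtn3, a neutrophil protease, read 3.39 to 10.5, near background, on the arrays labelled knockout and 38.9 to 118 on those labelled wild type (adjusted p = 0.13).

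The inducing pathway had members on both sides. Il17re, a subunit of the receptor for interleukin 17C, differed by 0.88 (limma adjusted p = 0.053). A second, dimmer Il17re probe differed by 0.22 (limma adjusted p = 0.40). Il6ra differed by 1.15 at one probe (adjusted p = 0.054) and by -0.54 at another (adjusted p = 0.13). The transcription factor Cebpa differed by -1.10 and the sensor of bacterial cell wall Nod2 by -1.06 (adjusted p = 0.083 and 0.097). The median differences of these lists were -0.25 for receptors and uptake, -0.47 for proteases, 0.15 for cytokines and their receptors and -0.04 for sensors and transcription factors, against -0.0027 over all tested probes.

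The genes whose log2 ratio was most like that of the Defb3 probe over the 6 arrays, by Pearson correlation, were D86604 (r = 0.997), Ifngr2 (0.997), Cldn17 (0.996), Anapc2 (0.994) and Gsbs (0.994). 173 of 21059 genes had a correlation above 0.95 with it. For the second Ltf probe they were Coa4, AI608034, Denr, Ccdc167 and Snrpe, at 0.986 to 0.992, and 110 genes lay above 0.95. The points share slides and reference RNA, and the correlations are descriptions of 6 arrays.

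**Figure D5:**
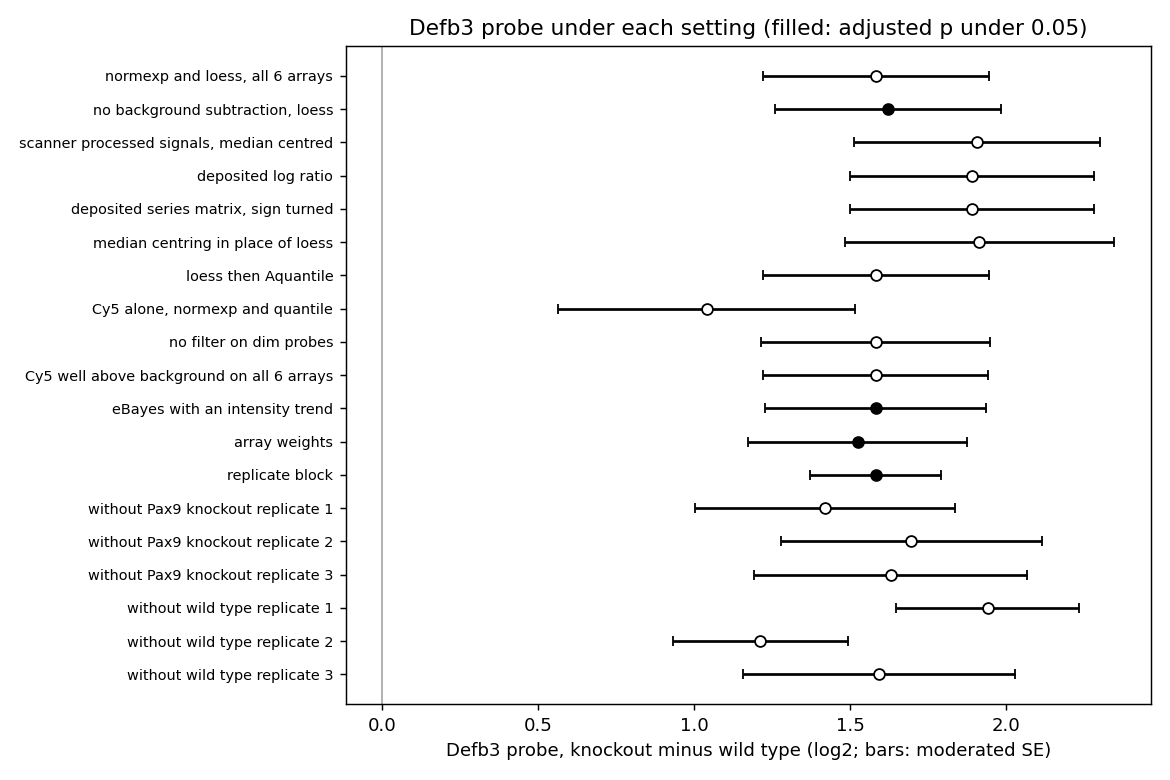
Difference at the Defb3 probe, arrays labelled Pax9 knockout minus wild type (log2, bars are the moderated SE), under each processing setting. Filled points have an adjusted p under 0.05, and the values run from 1.04 with Cy5 alone to 1.94 without wild type replicate 1.

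The Defb3 probe kept its sign in all 18 alternative settings, at 1.04 to 1.94, as the plot by setting shows, and its adjusted p ranged from 0.013 to 0.19. Some of these settings could not change the difference. It stayed at 1.58 with quantile normalization after loess, with either other filter, with the intensity trend and with the replicate block. The deposited log ratio and the series matrix gave the same 1.89. The 18 are thus not separate checks of the sign. The Defb3 probe passed in 4 of the 18: without background subtraction (adjusted p = 0.0496), with an intensity trend (0.045), with array weights (0.035) and with the replicate block. Without wild type replicate 2, its lowest array, the difference was 1.21 (limma adjusted p = 0.11). The groups of the ratio did not overlap, as for 30.5% of all tested probes.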

How the data were processed

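Per the labels, esophagus RNA (Cy5) and a pooled reference (Cy3) were hybridised together on 6 Agilent arrays. Each deposited scanner file lists intensity on a linear scale and a log10 ratio at 45018 spots, made with Feature Extraction 10.7.3.1 on design 014868, grid build mm9, per the file headers. Per the submitters' processing notes the version was 9.1. The deposited series matrix holds log2 values that correlated with the scanner ratio at -0.993 to -0.996, so its sign was turned. Its column medians lay between -0.02 and 0.02, and how it was centred is unknown.

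From the intensities, background was corrected by normexp (offset 50) and ratios by loess within each array. Outlier spots, 55 to 164 per array, were left out, and no spot was saturated. Using limma 3.58.1 (R 4.3.3), the difference, knockout minus wild type, was estimated over 30505 probes well above background in Cy5 on all 3 arrays of at least 1 group, two-sided, with Benjamini-Hochberg adjustment over all of them and a threshold of 0.05. Cy5 alone and Cy3 alone were quantile normalized. The fit was tested on simulated data with independent noise and no slide effect, so that test does not cover the difference between the slides.

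The genes and lists were chosen with earlier results of these data known. Every probe of the 7 genes is named whatever its value. From each pathway list all calls or else the 2 genes with the smallest p are named, with Pax9, Acta1, Ckm, the neutrophil markers Elane, Mpo, Ngp and Csf3r, and the 5 genes most like the 2 best members. Other names were chosen after their values were seen. List genes were matched by file name or RefSeq accession.

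Replicate numbers are shared between groups. Same-numbered arrays had deviations from the group means that correlated at 0.17, 0.51 and 0.34. Each exceeds 0.1, so a replicate block, which pairs same-numbered arrays, was fitted as an alternative. The limma fit described above did not pair arrays. Arrays with different numbers correlated at -0.49 to 0.16. Knockout replicate 3 with wild type replicate 1, at 0.16, also exceeded 0.1, so the rule does not single out the same-numbered array for wild type replicate 1. Other alternatives were background, normalization, filter, channel and weighting choices and the removal of each array. Same-numbered arrays also share slide positions 2, 3 and 4, and the labels give no meaning for the numbers.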

Additional observations from a re-analysis of the deposited data

How the results depend on the processing

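Of the 7 tested probes, 0 passed in limma, and 1 passed without background subtraction, with an intensity trend, with array weights and with the replicate block (the Defb3 probe each time), and 1 with Cy5 alone (the second Ltf probe). The count was 0 without each array in turn. The replicate block changed no other call of a member. Among pathway probes 3 passed, and 5 without background subtraction, from the deposited log ratio and from the series matrix, 0 with median centring, 37 with Cy5 alone, 1 where Cy5 had to be above background on all 6 arrays, 6 with the trend, 16 with array weights, 13 with the replicate block, and 0 to 5 without single arrays. Of all tested probes 1274 passed, and 718 with processed signals, 727 with the deposited log ratio, 714 with the matrix, 139 with median centring, 8204 with Cy5 alone, 699 above background on all 6 arrays, 3894 with array weights, 2254 with the replicate block, and 38 (without knockout replicate 3) to 1111 (without wild type replicate 3) without single arrays. Signs turned at Defb1 probe 1 with processed signals (0.19), the deposited log ratio (0.17) and the matrix (0.17), and at Defb1 probe 2 with the same (-0.17, -0.18 and -0.18). Defb14 turned with the deposited log ratio (-0.0067), the matrix (-0.0067) and array weights (-0.13), and lay at -0.25 to 0.26 without single arrays. Lcn2 turned with array weights (-0.14) and lay at -0.16 to 0.37 without single arrays. Ltf turned with median centring (-0.095 at probe 1 and -0.17 at probe 2). The causes were not tested. The Ltf and Camp probes lay near background, which limits what they can show. The second Ltf probe had no value where all 6 arrays had to be above background.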

Other observations

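S100a7a, an antimicrobial protein of keratinocytes, was chosen here after its values were seen. Its Cy5 signals were 3001, 2821 and 6865 on the arrays labelled knockout, against 453, 51.3 and 1006 on those labelled wild type. The groups of the log2 ratio did not overlap, and the difference of 3.08 (SE 0.76, limma adjusted p = 0.069) missed the threshold. Wild type replicate 2 was the lowest array, as at the Defb3 and Defb6 probes, and also at S100a9 (8276 there, against 44426 to 61024 on the other arrays). This was not particular to antimicrobial genes. In Cy5 that array was also the lowest at the squamous markers Krt4, Krt13, Sprr3 and Krt15, though not at Krt5 or Krt14. Krt4 read 71818 there, against 187500 to 305180 on the other arrays. The cause was not tested. Chil3, a lectin of myeloid cells on the neutrophil list, read 138460 on wild type replicate 1, against 1006 to 3009 on the other arrays.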
